A study of Mus musculus with 18 samples.

Results

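Brain hemispheres of R6/1 mice and wild-type mice aged 18 weeks were compared gene by gene, which is the earliest genotype difference in a series that also sampled 22 and 27 weeks. The members were the 3 samples titled R6/1 transgenic and the 3 titled wild-type at 18 weeks, 6 of the 18 samples. R6/1 mice, a model of Huntington's disease, carry a transgene made of the first exon of human huntingtin, in which the CAG repeat is expanded, behind the human huntingtin promoter. The controls were littermates without the transgene, and no group received a treatment. Mice were sex-matched between genotypes per the labels, 1 hemisphere per mouse was used, and its total RNA was hybridised to a short-oligonucleotide whole-genome mouse array. The samples are separate mice, so the p-values measure the spread between mice. A hemisphere is a bulk sample of many regions, so fewer cells of a type and less RNA per cell cannot be told apart.

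Huntington's disease first damages the striatum, whose principal cells are medium spiny neurons that use GABA. Those of the indirect pathway make enkephalin and the dopamine D2 receptor, and those of the direct pathway make substance P, dynorphin and the D1 receptor. Mutant huntingtin is known to disturb transcription in these neurons before they die, and many of the genes concerned encode neuropeptides, receptors, ion channels and calcium or cAMP signalling proteins.

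One wild-type array stood apart by the tissue it contained. Gabra6 encodes a subunit of GABA receptors that granule cells of the cerebellum make. Its signal was 10.9 in wild-type replicate 1, against 1445 and 936 in wild-type replicates 2 and 3 and 1015 to 1451 in the R6/1 mice. The Purkinje cell gene Pcp2 read 18.6 in that sample and 577 to 1279 in the other 5. The granule cell genes Fat2 and Cbln3 read 2.4 and 8.8 there, against 139.6 to 231.5 and 587 to 899. Cdhr1, a mitral cell gene of the olfactory bulb, was highest in the same sample at 291.4, against 45.9 to 77.4. These 4 cerebellar genes were thus near background in wild-type replicate 1, and an olfactory bulb marker was raised there. The summed signal of 25 cerebellar genes was 5360 in that sample and 11115 to 16609 in the other 5. Prl, made by the pituitary, read 261.5 in wild-type replicate 2 and 0.6 to 19.6 elsewhere. Xist, transcribed from the inactive X chromosome of females, was high in 1 mouse of each genotype. R6/1 replicate 3 had the lowest array weight of the 6, 0.37 against 0.81 to 1.29. Median signals ranged from 26.0 to 29.3, and pairwise correlations of log2 signals from 0.966 to 0.973. The summed signal of 46 striatal neuron genes was 26759 to 28732 in wild-type and 15720 to 18606 in R6/1 mice, so striatal genes were detected in all 6 samples. Mbp and Csf1r, single markers of oligodendrocytes and microglia, overlapped between the genotypes, Csf1r through wild-type replicate 1 alone.

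Signals below are always given in the order of replicates 1, 2 and 3 of a group. A fold change is the difference of mean log2(signal + 5.4), R6/1 minus wild-type, a scale that understates the change of weak genes. A gene passed when its adjusted p was at most 0.05. It held when, without wild-type replicate 1, it kept its direction, its adjusted p stayed at most 0.05 and the 3 R6/1 mice did not overlap the 2 remaining wild-type mice. Htt was no check of the transgene, since its probe sets read mouse sequence near the 3′ end of the transcript. Its signals were 113, 89.3 and 95.4 in the wild-type mice and 112, 107 and 224 in the R6/1 mice, and only R6/1 replicate 3 lay apart (log2 fold change 0.47 ± 0.25 SE, adjusted p = 0.38).

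At 18 weeks most of the genes that passed were lower in R6/1 mice, whereas over all genes more log2 fold changes lay above 0 than below. Of 12582 genes tested, 238 fell (1.89%) and 93 rose (0.739%), and among 27022 probe sets 376 fell (1.39%) and 158 rose (0.585%). The median log2 fold change over all genes was 0.03. All R6/1 mice lay below all wild-type mice in 1143 genes (9.08%) and above them in 1541 genes (12.2%). Each of the 331 genes that passed was among these. The genes that fell were well-expressed genes, with a median wild-type signal of 474, and those that rose were weaker, with a median of 113. Falls of at least 2-fold numbered 31, and rises of that size 5.

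Without wild-type replicate 1, 92 genes fell (0.731%) and 15 rose (0.119%). Of the 238 falls 89 held (37.4%), and of the 93 rises 14 held (15.1%). The sizes changed little, from a median log2 fold change of -0.63 to -0.60 for the falls and from 0.52 to 0.51 for the rises, and none shrank by more than 1.5 times. The 149 falls that did not hold had adjusted p-values of 0.0501 to 0.234 without that sample. The 79 rises that did not hold had values of 0.0529 to 0.212. Wild-type replicate 1 was the highest wild-type sample for 157 of the 238 falls and the lowest for 40. Among the 93 rises it was the highest for 26 and the lowest for 42. The same count over all genes was not made. Leaving out another mouse also cost calls. The falls numbered 148 without wild-type replicate 2, 122 without wild-type replicate 3, and 176, 121 and 205 without R6/1 replicates 1, 2 and 3. The rises numbered 37, 40, 56, 32 and 42 in the same order. In all 6 fits that left out 1 mouse, 80 falls and 9 rises passed. A fit of the 6 samples alone, which has fewer degrees of freedom, gave 75 probe sets lower and 6 higher.

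**Figure D1:**
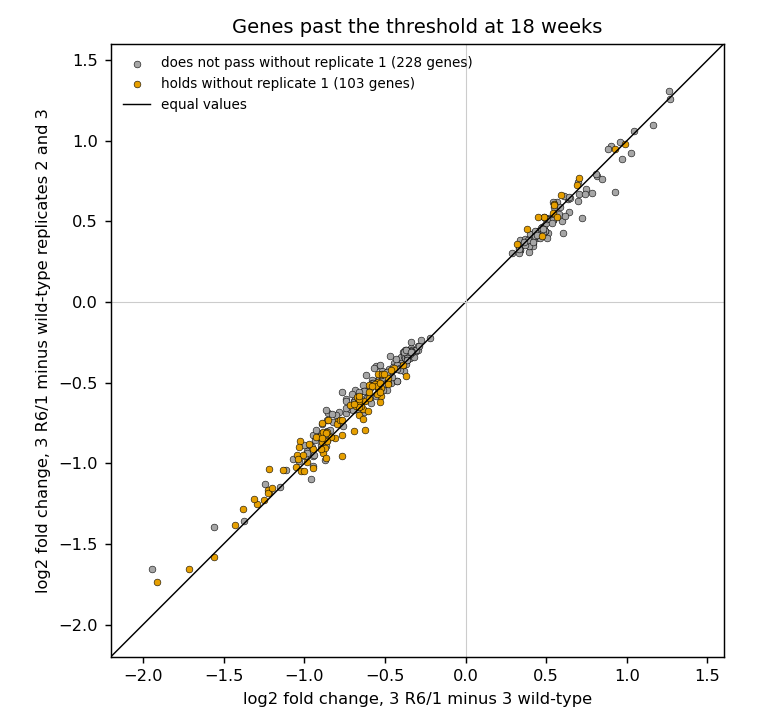
Each point is 1 of the 331 genes past the threshold at 18 weeks, with its log2 fold change from all 6 mice on the x axis and without wild-type replicate 1 on the y axis. The 103 genes that held are orange, the other genes are grey, and all lie close to the line of equal values.

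Medium spiny neuron genes of the striatum had the largest share of falls of any list described here. Of 46 tested 21 fell (45.7%), none rose, and 15 of the falls held. The list's median log2 fold change was -0.59, and -0.49 without wild-type replicate 1. The list was chosen with earlier results of these mice known, so its count is a description. The lists described here share members, so the same fall can count in several of them. Penk encodes proenkephalin, the opioid precursor of indirect pathway neurons. Its signals were 1062, 974 and 947 in the wild-type mice and 334, 362 and 401 in the R6/1 mice (log2 fold change -1.43 ± 0.11 SE, adjusted p = 2.7e-06). Each R6/1 mouse was far below each wild-type mouse, the wild-type mice were close together, and the fall held (-1.38, adjusted p = 5.5e-05). Ppp1r1b encodes DARPP-32, a protein phosphatase inhibitor controlled by dopamine through cAMP. Its signals were 434, 487 and 417 in the wild-type mice and 134, 135 and 176 in the R6/1 mice (log2 fold change -1.56 ± 0.16 SE, adjusted p = 4.4e-05). The value of wild-type replicate 1 lay between the other wild-type values, and the fall held (-1.58, adjusted p = 0.00046).

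Further cAMP-regulated phosphoproteins fell in the same mice. Arpp21, a cAMP-regulated phosphoprotein abundant in striatum, read 2022, 1688 and 2057 in the wild-type mice and 886, 711 and 748 in the R6/1 mice (log2 fold change -1.29 ± 0.17 SE, adjusted p = 0.00036). Arpp19, of the endosulfine family of phosphatase inhibitors, read 1657, 1641 and 1528 in the wild-type mice and 735, 608 and 682 in the R6/1 mice (log2 fold change -1.25 ± 0.09 SE, adjusted p = 2.7e-06). Both held, at -1.25 (adjusted p = 0.0038) and -1.23 (adjusted p = 5.5e-05), and in both the genotypes were far apart with little spread within each. The median over the other probe sets was smaller, at -0.47 for Arpp21 and -0.83 for Arpp19. Pde1b, a phosphodiesterase switched on by calcium and calmodulin, read 861, 773 and 758 in the wild-type mice and 415, 495 and 402 in the R6/1 mice (log2 fold change -0.86 ± 0.13 SE, adjusted p = 0.0016) and held (-0.81, adjusted p = 0.015). Of 43 genes of cAMP and G protein signalling 6 fell (14%), none rose, and only Pde1b and Rgs4 held, both also of the striatal list.

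Of 25 genes for dopamine, serotonin, opioid, cannabinoid and adenosine receptors 5 fell (20%), none rose, and only Drd1, also of the striatal list, held. Drd1, the D1 receptor of direct pathway neurons, read 245, 161 and 174 in the wild-type mice and 62.3, 91.2 and 85.6 in the R6/1 mice (log2 fold change -1.22 ± 0.20 SE, adjusted p = 0.0034). Its highest value was in wild-type replicate 1, and the fall held at -1.04 (adjusted p = 0.031). Drd2, the D2 receptor of indirect pathway neurons, read 99.8, 90.1 and 88 in the wild-type mice and 41, 53.2 and 54.3 in the R6/1 mice (log2 fold change -0.84 ± 0.19 SE, adjusted p = 0.028). It did not hold (-0.79, adjusted p = 0.11), and it passed in only 1 of the 6 fits with 1 mouse left out. Gpr6, a receptor without a settled ligand found in indirect pathway neurons, read 109, 104 and 83.5 in the wild-type mice and 34.8, 29 and 74.5 in the R6/1 mice (log2 fold change -1.11 ± 0.28 SE, adjusted p = 0.045). R6/1 replicate 3 was close to the wild-type range, and the fall did not hold (-1.04, adjusted p = 0.16). Rgs4, which speeds the shut-off of G proteins, read 1190.1, 1059.9 and 1036 in the wild-type mice and 552, 479 and 564 in the R6/1 mice (log2 fold change -1.04 ± 0.10 SE, adjusted p = 4.2e-05) and held (-0.98, adjusted p = 0.00049). Rgs9, its striatal relative, read 277, 212 and 220.2 in the wild-type mice and 101, 99.5 and 149 in the R6/1 mice (log2 fold change -1.001 ± 0.20 SE, adjusted p = 0.015). Rgs9 did not hold (-0.89, adjusted p = 0.088), and it passed in 3 of these 6 fits.

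Other genes of the striatal list fell as well. Scn4b, an accessory subunit of sodium channels, read 372, 437 and 391 in the wild-type mice and 173, 246 and 179 in the R6/1 mice (log2 fold change -1.0003 ± 0.15 SE, adjusted p = 0.0015) and held (-1.05, adjusted p = 0.006). Pcp4, a small modulator of calmodulin, was abundant at 3175, 3335 and 3089.6 in the wild-type mice and 1777, 1607 and 1918 in the R6/1 mice (log2 fold change -0.86 ± 0.09 SE, adjusted p = 5.1e-05), with no sample of 1 genotype near the other, and held (-0.86, adjusted p = 0.00049). Ngef, Syndig1l, Rasgrp2 and Ppp3ca, the last encoding the catalytic subunit of calcineurin, fell with log2 fold changes of -0.93, -0.89, -0.87 and -0.45, and all held. The other probe sets of Rasgrp2 had a median of -0.09. Lrrc10b, Hpca and Homer1, at -1.15, -0.72 and -0.62, did not hold (adjusted p = 0.099, 0.13 and 0.075). Several textbook markers of these neurons did not pass. Tac1, the substance P precursor, read 581, 550.3 and 408 in the wild-type mice and 303, 371 and 503 in the R6/1 mice and overlapped between genotypes (adjusted p = 0.31). Pdyn, the dynorphin precursor, read 78.4, 37.5 and 55.6 in the wild-type mice and 31.5, 31 and 37.4 in the R6/1 mice, with no overlap (adjusted p = 0.21). Pde10a, the main striatal phosphodiesterase, read 505, 572 and 651 in the wild-type mice and 309.7, 325 and 394 in the R6/1 mice, with no overlap (log2 fold change -0.74, adjusted p = 0.059). The cannabinoid receptor gene Cnr1, at -0.19, did not pass either (adjusted p = 0.38).

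**Figure D2:**
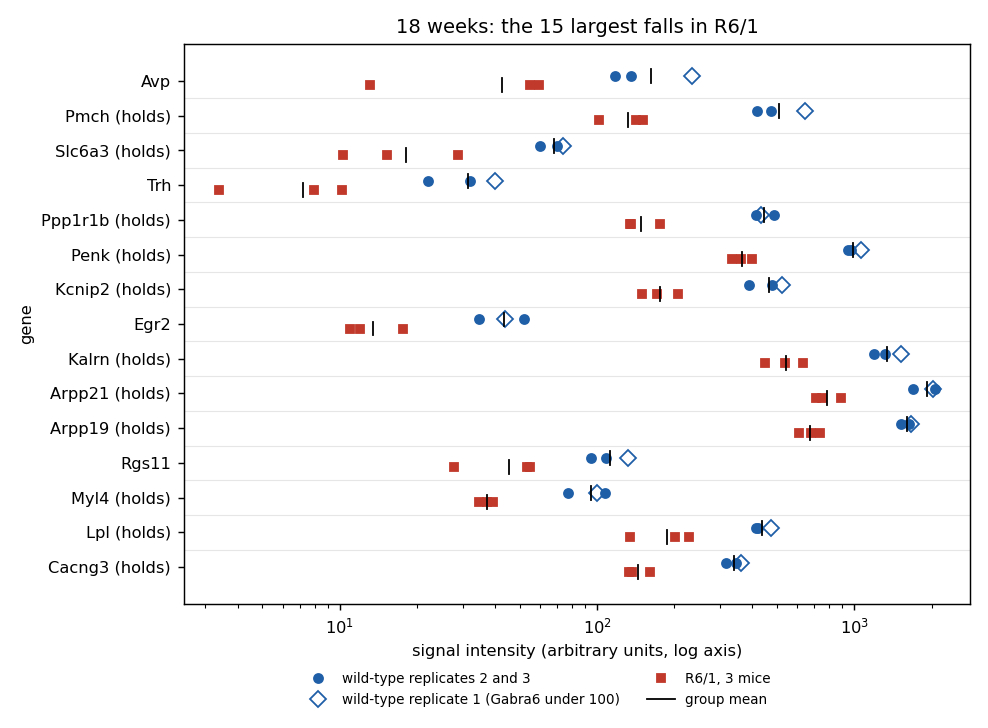
Signal of the 15 genes with the largest fall in each 18-week mouse, on a log axis of signal intensity. Blue marks are wild-type mice, the open diamond is wild-type replicate 1, red squares are R6/1 mice and the black ticks are group means; no R6/1 square reaches a wild-type mark in any row.

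Neuropeptide genes included the 2 largest falls that passed. Of 31 tested 9 fell (29%), none rose, and every log2 fold change in the list was below 0. Penk, Pmch, Vip and Sst held, and Avp, Trh, Crh, Npy and Cpe did not. Pmch encodes the precursor of melanin-concentrating hormone, made by neurons of the lateral hypothalamus that promote feeding. Its signals were 642, 420.5 and 474 in the wild-type mice and 102, 152 and 142 in the R6/1 mice, the mean being 3.76-fold lower in R6/1 (log2 fold change -1.91 ± 0.18 SE, adjusted p = 1.4e-05). Wild-type replicate 1 was the highest sample, and the fall held (-1.74, adjusted p = 0.00013). Vip, a peptide of cortical interneurons and of the circadian clock nucleus, read 338, 286 and 326 in the wild-type mice and 126, 119 and 160.3 in the R6/1 mice (log2 fold change -1.20 ± 0.13 SE, adjusted p = 5.8e-05) and held (-1.15, adjusted p = 0.00071). Sst, which encodes somatostatin and marks another class of interneurons, read 1112, 744 and 841 in the wild-type mice and 439, 415 and 443 in the R6/1 mice (log2 fold change -1.03 ± 0.16 SE, adjusted p = 0.0021). The R6/1 mice were nearly equal, while wild-type replicate 1 was well above the other wild-type mice, and the fall held at -0.86 (adjusted p = 0.018).

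The remaining peptide falls depended on the set of mice. Avp, the vasopressin precursor, had the largest log2 fold change of all genes that passed. Its signals were 233, 135 and 117 in the wild-type mice and 13.1, 59.6 and 54.9 in the R6/1 mice (log2 fold change -1.94 ± 0.42 SE, adjusted p = 0.022). The value of 13.1 in R6/1 replicate 1 and the value of 233.4 in wild-type replicate 1 were the extremes, and the fall did not hold (-1.65, adjusted p = 0.12). Without R6/1 replicate 1 the call was lost too, at a log2 fold change of -1.36. Trh, the thyrotropin-releasing hormone precursor, was weak at 40.1, 22.1 and 32.1 in the wild-type mice and 3.4, 7.9 and 10.2 in the R6/1 mice (log2 fold change -1.56 ± 0.38 SE, adjusted p = 0.043). It passed in none of the 6 fits with 1 mouse left out (-1.39, adjusted p = 0.17 without wild-type replicate 1). Npy, at 695, 509 and 560.2 in the wild-type mice and 308, 279 and 380.2 in the R6/1 mice, fell, with a log2 fold change of -0.86, and did not hold (-0.73, adjusted p = 0.084). Crh, the stress hormone precursor, did not hold either (-0.86, adjusted p = 0.11), whereas Crhbp, which encodes the protein that binds it, held (-0.97 with all mice, -0.88, adjusted p = 0.021). Cpe, an enzyme that trims peptide precursors, read 5367, 5564 and 5704 in the wild-type mice and 4775, 4372 and 4187 in the R6/1 mice and did not hold (-0.34, adjusted p = 0.071). The list of hypothalamic and pituitary genes holds Pmch, Avp and Trh themselves and also Prl, which was high only in wild-type replicate 2. The summed signal of its 11 tested genes was 1120 to 1408 in wild-type and 489 to 635 in R6/1 mice. How much hypothalamus each hemisphere held was not measured apart from these genes, and its part in the falls of Avp, Pmch and Trh was not tested.

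Promoters of members that fell together are shown because cAMP response elements, bound by CREB, are the classic control sites of Sst and Vip. The 250 bases before the transcription start are from RefSeq on build GRCm38.p6, read 5′ to 3′ on the gene's strand, with matches to any motif searched in capitals.
Sst, chr16:23890845-23891094, minus strand: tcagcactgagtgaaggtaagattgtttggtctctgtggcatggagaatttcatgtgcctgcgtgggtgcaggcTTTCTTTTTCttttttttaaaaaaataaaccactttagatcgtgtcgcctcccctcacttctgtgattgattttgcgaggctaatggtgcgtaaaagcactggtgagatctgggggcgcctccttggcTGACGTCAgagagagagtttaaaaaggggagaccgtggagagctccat
Vip, chr10:5638968-5639217, plus strand: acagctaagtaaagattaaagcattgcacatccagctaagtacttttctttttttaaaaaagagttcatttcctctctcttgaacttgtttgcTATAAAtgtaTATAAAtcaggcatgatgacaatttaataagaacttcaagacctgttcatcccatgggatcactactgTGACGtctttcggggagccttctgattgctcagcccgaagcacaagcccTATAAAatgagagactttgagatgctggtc
Pmch, chr10:88090822-88091071, plus strand: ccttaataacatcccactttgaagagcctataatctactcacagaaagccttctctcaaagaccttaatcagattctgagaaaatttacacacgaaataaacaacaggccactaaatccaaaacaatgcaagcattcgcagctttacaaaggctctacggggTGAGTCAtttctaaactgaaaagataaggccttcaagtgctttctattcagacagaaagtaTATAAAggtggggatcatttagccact
In Sst the capitals mark the full cAMP response element TGACGTCA, whose first base lies 48 bases before the start, and an upstream match to the core of the interferon-stimulated response element. In Vip they mark the shorter element TGACG, 79 bases before the start, and 3 copies of TATAAA. In Pmch they mark TATAAA, 27 bases before the start, and an AP-1 site read on the opposite strand, 88 bases before it. The motifs were counted on both strands of windows of 300 bases, which hold the 250 printed for these genes and run on past the start, and the shorter element lies within the full one. The full element was present in 4.26% of 188 falling genes with a window, 4.48% of the 67 that held and 3.54% of 10167 tested genes. The shorter element was present in 28.2%, 25.4% and 35.2%. TATAAA was present in 13.3%, 19.4% and 8.91%. The EGR site GCGGGGGCG was present in 10.1%, 7.46% and 6.63%, the AP-1 site TGACTCA in 6.38%, 8.96% and 4.42%, and the REST core CAGCACC in 7.98%, 4.48% and 9.36%. A match of letters is a description and does not show binding.

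Projection neuron genes of cortex and hippocampus fell as well. Of 28 tested 9 fell (32.1%) and none rose, with a list median of -0.54. Their summed signal was 13901 to 15454 in wild-type and 9245 to 10698 in R6/1 mice. Itpka, a kinase of inositol trisphosphate found in dendritic spines, read 462, 369 and 393 in the wild-type mice and 180.5, 146 and 229.6 in the R6/1 mice (log2 fold change -1.13 ± 0.15 SE, adjusted p = 0.00066) and held (-1.04, adjusted p = 0.0072). Lamp5, a membrane protein of superficial cortical neurons, read 699.7, 759 and 709 in the wild-type mice and 335, 387 and 339 in the R6/1 mice (log2 fold change -1.02 ± 0.11 SE, adjusted p = 4.6e-05). Wild-type replicate 1 was its lowest wild-type value, and the fall held (-1.05, adjusted p = 0.00046). Nrn1, a membrane-anchored protein that supports neurite growth, read 956, 1206 and 1103 in the wild-type mice and 735, 643 and 711 in the R6/1 mice (log2 fold change -0.64 ± 0.09 SE, adjusted p = 0.00066) and held (-0.73, adjusted p = 0.00049). Ccn2 and the potassium channel gene Kcnh3 held too, at -0.89 and -0.89. Camk2a, the calcium kinase of synaptic plasticity, read 2246, 1850 and 1580.5 in the wild-type mice and 1079.9, 1074 and 884 in the R6/1 mice (log2 fold change -0.89 ± 0.23 SE, adjusted p = 0.049) and did not hold (-0.76, adjusted p = 0.21). Cckbr, Rgs14 and Vsnl1 did not hold either (adjusted p = 0.092, 0.063 and 0.12).

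Outside the lists, Kalrn, Lpl and Myl4 were among the 15 largest falls and held. Kalrn, a guanine nucleotide exchange factor that shapes dendritic spines, read 1518, 1199 and 1316 in the wild-type mice and 632, 452 and 539 in the R6/1 mice (log2 fold change -1.31 ± 0.14 SE, adjusted p = 5.2e-05) and held (-1.22, adjusted p = 0.00067). The median over its other probe sets was -0.33, a smaller fall. Lpl, which encodes lipoprotein lipase, read 475, 421 and 415 in the wild-type mice and 134, 201 and 228 in the R6/1 mice (log2 fold change -1.22 ± 0.21 SE, adjusted p = 0.0049) and held (-1.16, adjusted p = 0.035), while another probe set gave -0.72. Myl4, a myosin light chain, read 100, 77.3 and 108 in the wild-type mice and 39.4, 37.4 and 34.7 in the R6/1 mice (log2 fold change -1.23 ± 0.22 SE, adjusted p = 0.0062) and held (-1.18, adjusted p = 0.038). Rgs11, another regulator of G protein signalling, read 132, 94.9 and 109 in the wild-type mice and 55.1, 53.5 and 27.7 in the R6/1 mice, and its fall did not hold (-1.13, adjusted p = 0.064). Ddn, Ptk2b, Baiap2 and Dlg4, all encoding postsynaptic proteins and chosen after their values were seen, held with log2 fold changes of -1.05, -0.85, -0.71 and -0.54.

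Calcium signalling followed the striatal list in the number of falls that held. Of 41 genes 14 fell (34.1%), none rose and 10 held, with a list median of -0.25. Among the falls that held, Pcp4 and Ppp3ca are also in the striatal list and Itpka in the cortical list. Cacng3, an auxiliary subunit that carries AMPA receptors to the synapse, read 361, 346 and 318 in the wild-type mice and 137, 133 and 161 in the R6/1 mice (log2 fold change -1.22 ± 0.10 SE, adjusted p = 3.2e-06). Both groups were tight and far apart, and the fall held (-1.18, adjusted p = 6.6e-05). Camkk2, a kinase that activates other calmodulin kinases, read 522, 481 and 520.5 in the wild-type mice and 255, 291 and 269.8 in the R6/1 mice (log2 fold change -0.89 ± 0.12 SE, adjusted p = 0.00054) and held (-0.87, adjusted p = 0.0051). The calcium pumps Atp2b1, Atp2b2 and Atp2a2 fell with log2 fold changes of -0.54, -0.53 and -0.48, and all held, although the other probe sets of Atp2a2 had a median of -0.09. Both calcineurin subunits in the list held, Ppp3ca at -0.45 and Ppp3r1 at -0.53. The calcium channel subunit gene Cacna2d3 held at -0.65. Ryr1, Hpca, Ncald and Camk2a did not hold, with adjusted p-values of 0.099, 0.13, 0.096 and 0.21.

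Of 38 potassium channel genes 7 fell (18.4%) and none rose. The falls that held were Kcnip2 and Kcnab1, also of the striatal list, and Kcnh3, also of the cortical list. Kcnip2, a calcium-binding partner of the channels that carry the A-type current, read 526, 479.9 and 389.7 in the wild-type mice and 149, 171 and 207 in the R6/1 mice (log2 fold change -1.38 ± 0.17 SE, adjusted p = 0.00018) and held (-1.29, adjusted p = 0.0023). Kcnab1, a beta subunit of voltage-gated channels, read 726, 715 and 653 in the wild-type mice and 481, 467 and 478 in the R6/1 mice (log2 fold change -0.55 ± 0.08 SE, adjusted p = 0.0015) and held (-0.52, adjusted p = 0.014). Kcnq5, a subunit of the M-current channel, read 216, 183 and 183 in the wild-type mice and 108, 126 and 138 in the R6/1 mice and fell, but its adjusted p ended just above the threshold (-0.63 with all mice, -0.55, adjusted p = 0.0501 without wild-type replicate 1). Kcnv1, Kcnma1 and Kcnab2 did not hold (adjusted p = 0.079, 0.11 and 0.17). Among 13 sodium and pacemaker channel genes Scn4b, also of the striatal list, held and Fgf12, at -0.33, did not (adjusted p = 0.092).

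Of 20 glutamate receptor genes only Grm3 fell (5%, against 1.89% of all genes tested), at 521, 425 and 427 in the wild-type mice and 269, 316 and 327 in the R6/1 mice (log2 fold change -0.58 ± 0.12 SE, adjusted p = 0.018), and it did not hold (-0.48, adjusted p = 0.1). Of 18 GABA synapse genes Slc6a11, a GABA transporter of astrocytes, and Gabbr1, a GABA-B receptor subunit, fell (11.1%), with log2 fold changes of -0.65 and -0.35. Neither held (adjusted p = 0.075 and 0.12), and the other probe sets of Gabbr1 had a median of 0.01. The histamine receptor gene Hrh3, the somatostatin receptor gene Sstr4 and Cckbr fell without holding, at -0.78, -0.53 and -0.86. Slc6a3, the dopamine transporter of midbrain neurons, read 73.6, 69.7 and 60 in the wild-type mice and 15.2, 28.7 and 10.3 in the R6/1 mice (log2 fold change -1.71 ± 0.26 SE, adjusted p = 0.0018). The R6/1 mice lay between 10.3 and 28.7, all below the lowest wild-type value, and the fall held (-1.65, adjusted p = 0.015). Th, the dopamine synthesis enzyme of the same neurons and of the olfactory bulb, did not pass at 118, 60.7 and 53.5 in the wild-type mice and 40, 39.7 and 35.7 in the R6/1 mice (adjusted p = 0.14). Prkcd, a protein kinase C isoform of thalamic neurons, read 214, 239.9 and 273 in the wild-type mice and 111, 118 and 141 in the R6/1 mice (log2 fold change -0.95 ± 0.16 SE, adjusted p = 0.0035) and held (-1.03, adjusted p = 0.0097), but its other probe set gave -0.12. Ramp3 held as well at -0.60, and Tnnt1 and Rgs16 did not (adjusted p = 0.074 and 0.087). Of 22 thalamic and midbrain genes tested 6 fell (27.3%), none rose and 4 held. The list median was -0.32 with all mice and -0.49 without wild-type replicate 1. Their summed signal was 4804, 6545 and 6331 in the wild-type and 5554, 5602 and 4871 in the R6/1 mice. The genotypes overlapped through wild-type replicate 1 alone. Zic1 and Cbln1 of this list are also in the cerebellar list. Zic1 read 580.5, 1143 and 1285 in the wild-type mice and 1547.4, 1626.5 and 1188.9 in the R6/1 mice. The sum therefore does not measure thalamic and midbrain tissue alone. The part of the amount of that tissue in these falls was not tested.

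Immediate early genes, which neuronal activity switches on, lay mostly below 0 while few passed. Of 37 genes 6 fell (16.2%), none rose, and the list median was -0.49. Below 0 were 31 of the 37 log2 fold changes, against 5483 of 12582 over all genes. Egr2 read 44, 34.6 and 52 in the wild-type mice and 17.6, 12 and 10.9 in the R6/1 mice (log2 fold change -1.37 ± 0.34 SE, adjusted p = 0.045), did not hold (-1.36, adjusted p = 0.14) and passed in none of the 6 fits with 1 mouse left out. Egr3 read 780, 632 and 722 in the wild-type mice and 391, 317 and 435 in the R6/1 mice (log2 fold change -0.90 ± 0.13 SE, adjusted p = 0.0015) and held (-0.83, adjusted p = 0.014). Dusp14, a phosphatase, read 326, 312 and 284 in the wild-type mice and 176, 162 and 185 in the R6/1 mice (log2 fold change -0.80 ± 0.09 SE, adjusted p = 7.9e-05) and held (-0.76, adjusted p = 0.001). Fosl2, Homer1 and Plk2 did not hold (adjusted p = 0.15, 0.075 and 0.19). Arc, the activity-regulated gene of dendrites, read 251, 285 and 263 in the wild-type mice and 123, 53.6 and 117 in the R6/1 mice. Its groups did not overlap and its log2 fold change was -1.48, but R6/1 replicate 2 was far below the other R6/1 mice and the gene did not pass (adjusted p = 0.055). Fos read 473, 686 and 352 in the wild-type mice and 476, 247 and 258 in the R6/1 mice and overlapped between the genotypes (adjusted p = 0.35). Of 18 circadian clock genes 2 fell (11.1%), none rose, and 5 log2 fold changes lay above 0. The 2 falls, Bhlhe40 and Hlf, held. Bhlhe40 read 389, 356 and 372 in the wild-type mice and 189, 198 and 186 in the R6/1 mice (-0.94, -0.91, adjusted p = 0.0021 without wild-type replicate 1). Hlf read 368, 342 and 381 in the wild-type mice and 226, 239.7 and 219 in the R6/1 mice (-0.66, -0.65, adjusted p = 0.039 without that sample). Tef (-0.34, adjusted p = 0.18) and Cry1 (0.41, adjusted p = 0.30) did not pass.

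Of 35 synaptic vesicle genes 5 fell (14.3%) and none rose. Bsn, a scaffold of the presynaptic active zone, read 489, 519 and 506 in the wild-type mice and 342, 310.4 and 314 in the R6/1 mice (log2 fold change -0.64 ± 0.09 SE, adjusted p = 0.001) and held (-0.66, adjusted p = 0.0056). Rab3c, a vesicle GTPase, and Nptx1, a secreted pentraxin, held with -0.46 and -0.37. Sv2b and Syt1, the calcium sensor of release, did not hold (-0.44, adjusted p = 0.12 and -0.31, adjusted p = 0.099). Of 27 cholesterol synthesis genes Hmgcs1 and Fdft1 fell, at -0.38 and -0.45, and neither held (adjusted p = 0.12 and 0.088). Srebf1, a regulator of lipid synthesis, passed as a rise only without wild-type replicate 1 (0.42 with all mice, 0.53, adjusted p = 0.04 without it). Cpne9, Car7 and Ip6k2 were the 3 falls that passed only then. Wild-type replicate 1 was the lowest wild-type sample in each, at 141.7, 148.5 and 128.0.

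Among glial genes few calls held. Of 27 astrocyte genes 5 fell (18.5%), Vim rose and none held, while the summed signal was 36789 to 38201 in wild-type and 29371 to 33115 in R6/1 mice. The falls were Slc1a2, the main glutamate transporter, at -0.52, Dio2 at -0.51, Slc7a10 at -0.43, Gja1 at -0.40 and Cpe at -0.32. Their adjusted p-values without wild-type replicate 1 were 0.17, 0.094, 0.051, 0.14 and 0.071. Vim, an intermediate filament of immature and reactive astrocytes, read 236, 366 and 356 in the wild-type mice and 483, 572 and 507 in the R6/1 mice (log2 fold change 0.72 ± 0.17 SE, adjusted p = 0.035), and wild-type replicate 1 was lowest. It did not hold (0.52, adjusted p = 0.17). Gfap, the defining filament of reactive astrocytes, overlapped at 238, 94.4 and 275 in the wild-type mice and 148, 193 and 65.7 in the R6/1 mice (adjusted p = 0.62). Of 26 oligodendrocyte genes Car2, Tspan2 and Mal fell (11.5%). In 9 of the 26 all R6/1 mice lay below all wild-type mice and in none above, against 9.08% and 12.2% of all genes. Car2, a carbonic anhydrase, read 1592, 1745 and 1715 in the wild-type mice and 1039, 1086 and 1062 in the R6/1 mice (log2 fold change -0.66 ± 0.08 SE, adjusted p = 0.00015) and held (-0.70, adjusted p = 0.00067). Tspan2 held at -0.62 (adjusted p = 0.012) but lost its call without wild-type replicate 2 or 3, and Mal did not hold (-0.50, adjusted p = 0.089). None of 23 microglial or 22 vascular genes passed, and at the shares over all genes (1.89% lower and 0.739% higher) few would be expected to. Igfbp5 fell and held (-0.81, -0.84, adjusted p = 0.015), while Igfbp2, a meningeal gene, rose without holding (0.48, 0.47, adjusted p = 0.094).

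Some lists gave almost no call. Over all genes 1.89% fell and 0.739% rose, so few calls would be expected in lists of this size. None of 49 oxidative phosphorylation genes, 34 proteasome and ubiquitin genes or 19 glucocorticoid-responsive genes passed, and their medians were -0.05, 0.00 and 0.00. Of 35 chaperone genes only Hspa1b fell (2.86%), at 166, 121 and 165 in the wild-type mice and 76.4, 83.2 and 68 in the R6/1 mice (log2 fold change -0.93 ± 0.18 SE, adjusted p = 0.013), and it did not hold (-0.86, adjusted p = 0.077). None of 25 cerebellar genes passed. Their median was 0.60 with all mice and -0.29 without wild-type replicate 1. Gabra6 went from 2.10 to 0.05 and Pcp2 from 1.19 to -0.68, so the sign of Pcp2 depended on that sample. Their standard errors stayed large, at 1.49 and 1.29 for Gabra6 and 1.42 and 1.27 for Pcp2. The 22-week wild-type samples with Gabra6 under 100 remained in the shared spread of both fits, so the test could hardly call such genes. Without wild-type replicate 1, all R6/1 mice lay below the remaining wild-type mice for Pcp2 and above them for Il16.

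**Figure D3:**
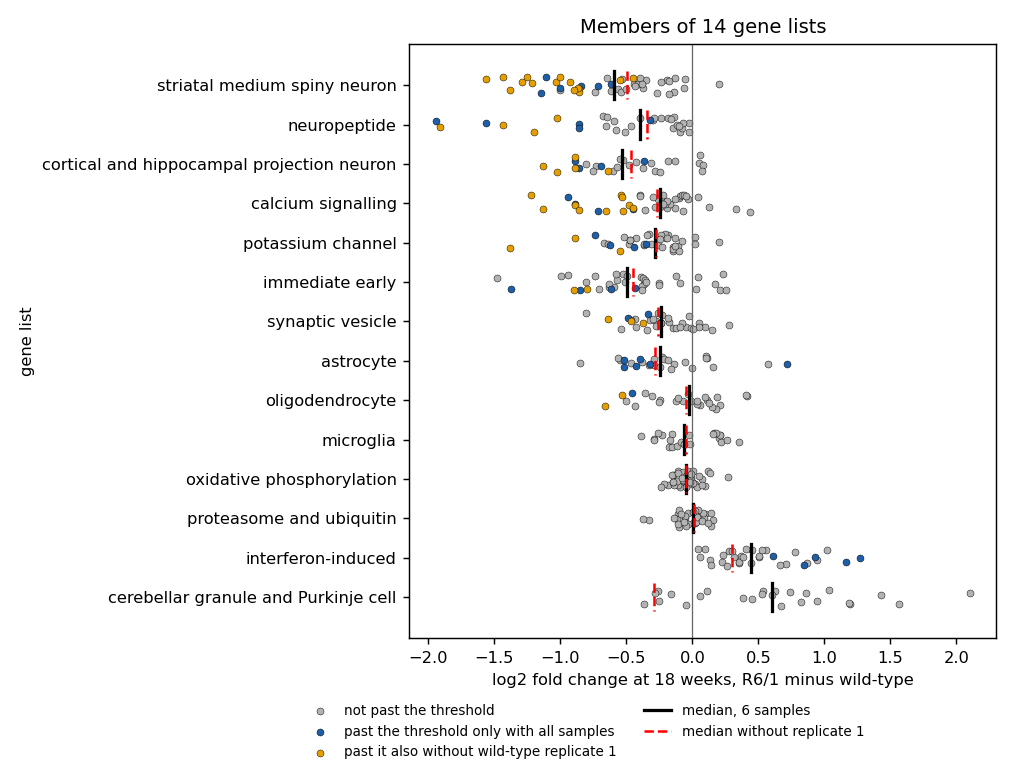
Members of 14 gene lists by their log2 fold change at 18 weeks, R6/1 minus wild-type, with all 6 mice. Orange points held, blue points passed only with all mice, grey points did not pass, and black and dashed red lines are list medians with all mice and without wild-type replicate 1; the red line leaves the black one most in the cerebellar list.

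Fewer genes rose, and 4 of the 15 largest rises were of the list of interferon-induced genes, all at low signal. Of 33 genes tested 5 rose (15.2%), none fell and all 33 log2 fold changes were above 0. The list median was 0.44 with all mice and 0.30 without wild-type replicate 1, and none of the 5 held. Rtp4, an interferon-induced chaperone of receptors, read 28.8, 29.8 and 29.4 in the wild-type mice and 85.1, 101 and 55.3 in the R6/1 mice (log2 fold change 1.27 ± 0.26 SE, adjusted p = 0.016). The wild-type mice were nearly equal, R6/1 replicate 3 was the lowest R6/1 mouse, and the adjusted p without wild-type replicate 1 was 0.067. Oasl2, of the oligoadenylate synthetase family, read 12.4, 13.4 and 16.6 in the wild-type mice and 41.2, 35.1 and 38.3 in the R6/1 mice (log2 fold change 1.16 ± 0.24 SE, adjusted p = 0.018) and did not hold (1.10, adjusted p = 0.084). Irf7, the transcription factor that amplifies interferon responses, read 10.1, 17.9 and 22.9 in the wild-type mice and 32.4, 44.5 and 31.9 in the R6/1 mice (log2 fold change 0.93 ± 0.22 SE, adjusted p = 0.035). The lowest value was 10.1 in wild-type replicate 1, and the rise went to 0.68 without it (adjusted p = 0.17). Xaf1 and Ifit3 rose by 0.85 and 0.61 and did not hold (adjusted p = 0.15 and 0.099). Rtp4 passed in 2 of the 6 fits that left out 1 mouse, Oasl2 in 3, Irf7 and Xaf1 in 1 each, and Ifit3 in none.

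Parp12, an ADP-ribosyltransferase that interferon also induces but that was in no list, was the largest rise that held. Its signals were 47, 45.9 and 49.8 in the wild-type mice and 94.2, 109.8 and 95.9 in the R6/1 mice (log2 fold change 0.99 ± 0.14 SE, adjusted p = 0.00087). The wild-type mice were close together and well below every R6/1 mouse, and the value barely moved without wild-type replicate 1 (0.98, adjusted p = 0.0064). The promoter of Ifit3 is shown because the interferon-stimulated response element is the site through which interferon acts on this family.
Ifit3, chr19:34583279-34583528, plus strand, RefSeq on GRCm38.p6: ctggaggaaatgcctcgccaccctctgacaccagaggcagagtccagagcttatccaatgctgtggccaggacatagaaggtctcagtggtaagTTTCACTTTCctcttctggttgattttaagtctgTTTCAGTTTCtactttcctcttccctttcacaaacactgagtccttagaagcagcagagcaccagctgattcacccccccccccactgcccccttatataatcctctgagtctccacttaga
The capitals mark 2 matches to the element's core, read here on the opposite strand, which begin 156 and 122 bases before the start. The core was searched as GAAA, 2 bases of any kind and GAAA again. It was present in 3.80% of 79 rising genes with a window, 6.38% of 188 falling genes and 3.51% of all 10167.

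Mri1, an enzyme of methionine salvage, also held among the 15 largest rises, at 53.7, 55.2 and 47.2 in the wild-type mice and 115, 117 and 81.8 in the R6/1 mice (log2 fold change 0.92 ± 0.17 SE, adjusted p = 0.009; 0.95, adjusted p = 0.036 without wild-type replicate 1). Rps6, a ribosomal protein gene, read 46.5, 41.8 and 40.9 in the wild-type mice and 105, 141 and 90.7 in the R6/1 mice through a weak probe set and did not hold (1.26, 1.31, adjusted p = 0.068). Polr2a, the large subunit of RNA polymerase II, read 49.7, 63.4 and 62.4 in the wild-type mice and 105, 86.8 and 208 in the R6/1 mice (log2 fold change 1.03 ± 0.23 SE, adjusted p = 0.024). R6/1 replicate 3 was far above the other R6/1 mice, another probe set gave -0.76, and the rise did not hold (0.92, adjusted p = 0.11). Atad2b, a bromodomain protein, read 136, 171 and 153 in the wild-type mice and 371, 314 and 240.4 in the R6/1 mice and missed the threshold only without wild-type replicate 1 (0.97, 0.88, adjusted p = 0.053). Dand5, Zfp729a, Brca1, Sfmbt2, Abca8a and Jrk completed the 15 largest rises, at 1.05, 0.95, 0.90, 0.88, 0.81 and 0.81, and none held. Sfmbt2 and Onecut2, at 0.70, were the 2 rises among 33 developmental transcription factor genes. Their adjusted p-values without wild-type replicate 1 were 0.057 and 0.081.

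**Figure D4:**
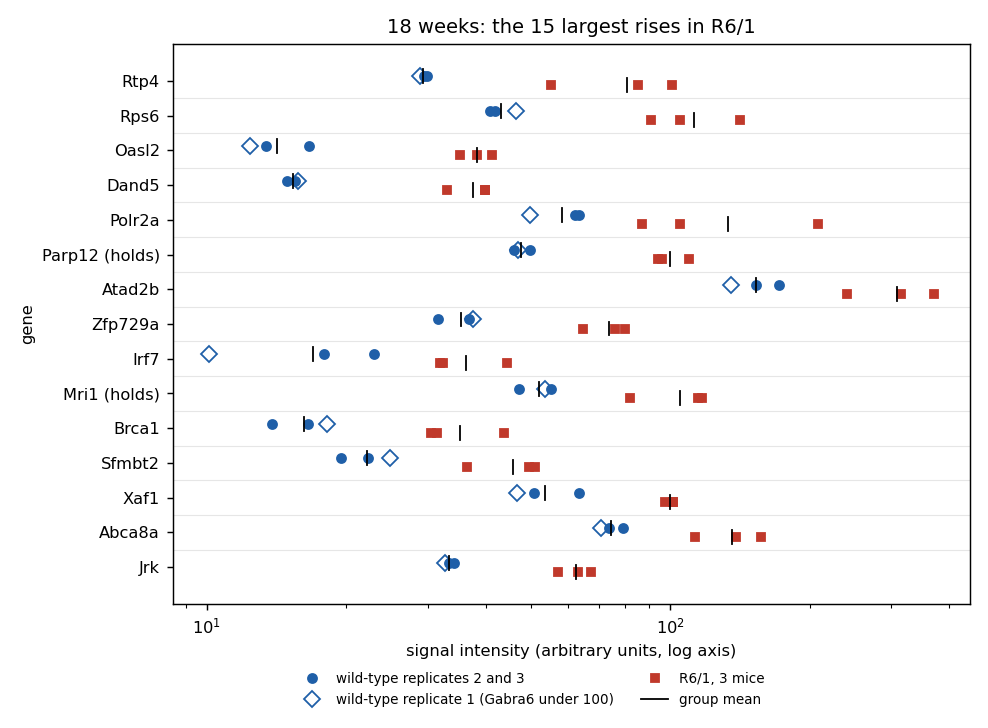
Signal of the 15 genes with the largest rise in each 18-week mouse, on a log axis of signal intensity, with marks as in the plot of the largest falls. Every red square lies to the right of every blue mark in its row, and only Parp12 and Mri1 held.

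The other rises that held were smaller and were named after their values were seen. Abca1, the transporter that exports cholesterol from cells, read 411, 357 and 390.4 in the wild-type mice and 557, 519 and 549 in the R6/1 mice (log2 fold change 0.48 ± 0.08 SE, adjusted p = 0.0035) and held (0.53, adjusted p = 0.0092). Bmi1, a Polycomb protein, and Sin3b, a corepressor scaffold, held at 0.38 and 0.55. Acadm, an enzyme of fatty acid oxidation, held at 0.32. Marcks, a substrate of protein kinase C, and Prkcq, a kinase of that family, held at 0.45 and 0.70. Smoc1, Rnpep, Parva, Pogz, Particl and Gprasp2 completed the 14, at 0.69, 0.59, 0.57, 0.55, 0.54 and 0.48. None of the 14 reached a 2-fold rise, and their median was 1.46-fold, against 1.72-fold for the 89 falls that held.

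The falls that held and are not named above were Ctxn1, Tafa1, Rasl10a, Ddit4l, Tmem121b, 1110008P14Rik, Myh7, Itih3, Lingo1, Camk1g, Enc1, Inka2, Dgkz, Pdp1, Phyhip, Lmo4, Car11, Chn1, Adamts3, Dclk1, Lzts3, Vxn, Aifm3, Daam1, Erc2, Ttyh1, Necab3, Mfge8, Htra1, Copg1, Crip2, Vstm2l, Camk2n1, Ptprd, Serpini1, Fbxw7, Stard10 and Ywhah. Among all falls that held, Aifm3, Camk2n1, Inka2, Myh7, Nptx1, Phyhip, Ramp3, Stard10 and Tspan2 lost their call when another mouse was left out, and so did the rises Acadm, Bmi1, Marcks, Rnpep and Smoc1. Every other gene that passed at 18 weeks did not hold. Of these, falls of at least 1.5-fold not named above were Ankrd63, Epop, Fam131a, Synpo, C1ql2, 2900055J20Rik, Etnppl, Asb11, Birc3, Jsrp1, Otof, Cnih2, Grasp, Rasd1, Rin1, Dmkn, Sipa1l1, Nnat, Pamr1, Ido1, Cabp1, Iqgap2, Wipf3, Blnk, Rasgrp1, Ssbp4, 9330102E08Rik, Camkv, Ptgs2, Fcgr2b, Neto1, Rhobtb2, Coch, Nos1ap, Dusp7, Pradc1, Plxnd1, Ttc9b, Limd2, Il33, Psd and Shank3. Rises of that size not named above were Cntn6, Nmi, Trmt2b, Cep170, Arhgef7, Bag2, 2810410L24Rik, Yipf2, Apod, Tmem238, Dusp16 and Macrod1. The falls Blnk, Camk2a, Crh, Dmkn, Egr2, Fcgr2b, Il33, Kcnab2, Mal, Plk2, Rgs16, Trh and Vsnl1 and the rises Ifit3, Jrk and Zfp729a passed in none of the 6 fits with 1 mouse left out.

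Each gene's value comes from 1 probe set, and many genes have others. The median over the other probe sets had the direction of the call for 120 of the 129 falls and 38 of the 43 rises that have them. Of the genes named here it had the opposite sign for the falls Aifm3 (0.08), Daam1 (0.14), Etnppl (0.07), Fcgr2b (0.19) and Gabbr1 and for the rises Arhgef7 (-0.15) and Polr2a. It was smaller than the printed log2 fold change by more than 1.5 times for further falls, among them Kcnh3 (-0.49), Kcnq5 (-0.36), Dio2 (-0.31), Sv2b (-0.25), Fgf12 (-0.20), Inka2 (-0.25), Necab3 (-0.19), Sipa1l1 (-0.26), Ptprd (-0.23), Ncald (-0.19) and Kcnab2 (-0.15). It was smaller by as much for rises such as Atad2b (0.48), Brca1 (0.40), Jrk (0.47), Onecut2 (0.38), Apod (0.29), Parva (0.29), Sin3b (0.18) and Yipf2 (0.00258).

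The differences seen at 18 weeks were set beside those at the later ages, which used other mice. Of the 238 falls, 237 were in the same direction at 22 weeks and 158 passed there, and 234 were in the same direction at 27 weeks and 137 passed. Of the 93 rises, 90 kept their direction at each later age, and 34 and 30 passed. All 89 falls that held were lower at both later ages, with 77 and 73 passing, and all 14 rises that held were higher, with 11 passing at each age. The share of all genes passing at the later ages is not given here, and all ages share 1 estimate of the spread. The counts are therefore a description and not an independent repeat. For the 89 falls the median log2 fold change went from -0.78 at 18 weeks through -0.72 to -0.63 at 27 weeks. Because these genes were chosen on their 18-week values, the smaller later medians cannot be read as a change with age. Pmch read -1.91, -2.11 and -1.96 at the 3 ages, Penk -1.43, -1.63 and -1.18, and Cacng3 -1.22, -0.86 and -0.40. No probe set passed the test that the 18-week difference equals the later one, 0 of 27022 (0%) against 22 weeks and 0 of 27022 (0%) against 27 weeks. At an unadjusted p under 0.05 there were 1108 and 1086, and the smallest adjusted p-values were 0.999 and 0.252. The comparison at 22 weeks rests on 2 R6/1 mice, and 2 of its 3 wild-type hemispheres had a Gabra6 signal under 100.

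**Figure D5:**
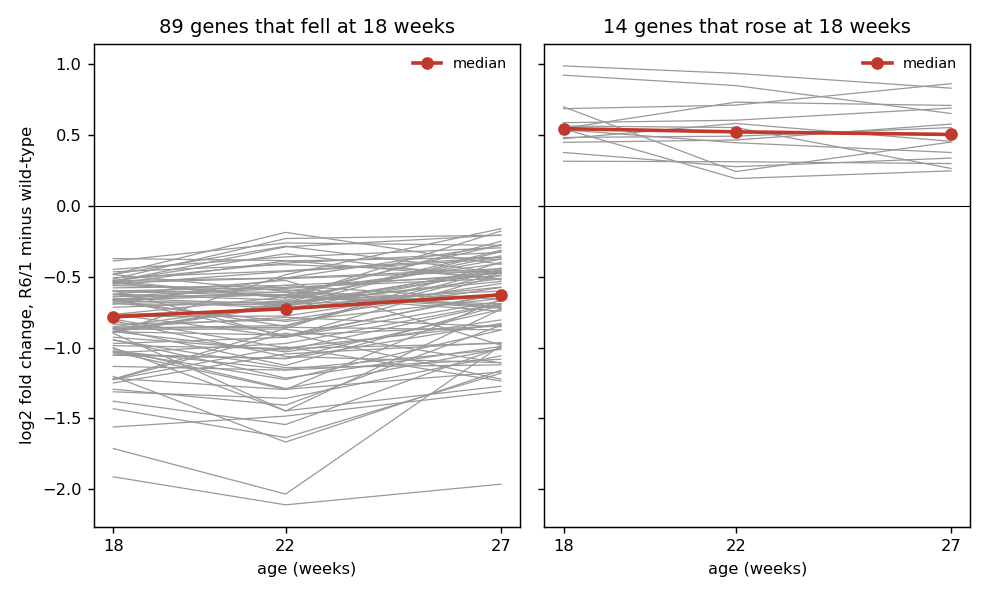
Log2 fold change, R6/1 minus wild-type, at 18, 22 and 27 weeks for the 89 falls and 14 rises that held at 18 weeks, with 1 grey line per gene. The red line is the median, and no grey line crosses 0 at a later age.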

How the data were processed

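The deposited values are linear signal intensities, 1 per probe set and array, and MAS5 is named in the submitters' processing notes without a version. All arrays already shared a trimmed mean of 100 and were not rescaled. Arrays have no read depth: their number limits the precision. Of 45101 probe sets, 64 controls were left out. The platform annotation named 1 gene for 34945, several for 932 and none for 9160; only the first are named. Probe sets with a mean signal above 16.1, the 40th percentile, were kept. A gene is its kept probe set with the highest mean.

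The offset of 5.4 added before log2 is the 20th percentile of all signals. One mean for each of the 6 groups of genotype and age was fitted over all 18 samples with limma 3.58.1 in R 4.3.3, with a variance trend, so all ages share 1 estimate of the spread. Tests were two-sided with Benjamini-Hochberg adjustment over all 27022 probe sets, at 0.05. The same fit was repeated without wild-type replicate 1. On simulated data the 18-week comparison, with 27022 probe sets, found 39.6% of the probe sets shifted by 0.6 on the log2 scale, 76% of those shifted by 1 and 94.8% of those shifted by 1.5, and 4.43% of its calls were false. The simulated noise was normal, independent and of each probe set's fitted spread, and no simulated array lacked cerebellum. The share of false calls therefore does not cover arrays that differ in tissue. Alternatives were the offset, the filter, quantile normalization, array weights, the variance trend, the samples fitted, the probe set and each mouse left out.

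The comparison, its gene lists and the choice of which genes to name were made with earlier results of these data known, and no list was tested as a set. By rule the named genes are the 15 largest falls, the 15 largest rises and the 10 smallest p-values. They include the largest changes that failed or passed only without wild-type replicate 1. They also include the smallest p-values of each test between ages, 4 members of each list and Htt, Gabra6 and Pcp2. All other genes were named after their values were seen. Of 331 genes that passed, 267 had a RefSeq promoter window.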

Additional observations from a re-analysis of the deposited data

Results flagged for a closer look

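Genes that passed at 18 weeks or were named by rule were searched for a reversal at 22 weeks, and the other genes tested were not. In 5 of those searched every R6/1 mouse lay on one side of every wild-type mouse at 18 weeks and on the opposite side at 22 weeks. At 18 weeks alone all R6/1 mice lay below all wild-type mice in 9.08% of all genes and above them in 12.2%. How many of all genes tested reverse in this way was not counted, so the 5 are a description. Exoc3, Gm10037, Kcp and Zfp729a were named for the smallest p-values of the test between 18 and 22 weeks, so their p-values are selected. Exoc3, Gm10037 and Kcp did not pass at 18 weeks (adjusted p = 0.10, 0.11 and 0.18). The differences of the log2 fold changes, 18 minus 22 weeks, were -1.37 for Birc3, -1.71 for Exoc3, -1.68 for Gm10037, 1.08 for Kcp and 1.83 for Zfp729a. The difference itself was tested in limma, and none passed (adjusted p = 0.999 for each; unadjusted p = 0.000984, 0.000157, 0.0003, 0.000579 and 8.92e-05). Birc3, an inhibitor of apoptosis, averaged 28.8 in wild-type and 13.2 in R6/1 mice at 18 weeks, and 16.9 and 24.6 at 22 weeks. Exoc3, of the exocyst complex, averaged 469.7 and 282 at 18 weeks, and 231 and 434 at 22 weeks. Its R6/1 signals at 18 weeks were 339.2, 330.4 and 175.9, so replicate 3 lowered that mean. The other probe set of Exoc3 gave a log2 fold change of 0.04 at 18 weeks, against -0.78 for the one shown. Zfp729a, a zinc finger gene, averaged 35.3 and 73.6 at 18 weeks, and 91.8 and 48.1 at 22 weeks. Only 2 R6/1 mice were titled 22 weeks, and 2 of the 3 wild-type hemispheres of that age had a Gabra6 signal under 100.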

How the results depend on the processing

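At 18 weeks 376 probe sets were lower and 158 higher. The lower count stayed within 1.5 times under both other offsets, both other filters, quantile normalization and array weights. It was 75 with only the 6 samples at 18 weeks, 227 without the variance trend and 167 without the 3 wild-type samples of any age with Gabra6 under 100. Leaving out 1 mouse gave 143 to 329. The higher count was 91 with no filter, 6 with only the 6 samples, 93 without the trend and 43 without those 3 samples, and 30 to 110 with 1 mouse left out. Without wild-type replicate 1 the counts were 143 and 30. There they were 25 and 1 with only the samples at 18 weeks, and 259 and 97 with array weights. The counts of the tests between ages were 0 under every alternative run. Among single genes, Pcp2 ranged from -0.681 without wild-type replicate 1 to 2.19 without wild-type replicate 2, and Sostdc1 from -0.028 without wild-type replicate 1 to 0.806 without wild-type replicate 3. Without the 3 wild-type samples they were again -0.681 and -0.028. Psmb7 ranged from -0.523 without R6/1 replicate 1 to 0.000769 without R6/1 replicate 3, and Ttr was 0.00255 under quantile normalization. The other probe sets of Gabbr1 gave 0.00784 and those of Polr2a -0.757. The causes were not tested. No paired analysis was possible because the titles carry a separate code for each mouse and no number shared between groups. Signals near background and 3 mice a group limit the weak genes.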
